A study of Mus musculus with 30 samples.

Results

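The genes described here are 36 genes of glycolysis and of the hypoxia response, taken by name from a fixed list of symbols, of 55573 genes in all. They were followed in 12 bulk RNA libraries and in 6 immune cell classes of 8 single-cell libraries, which came from the mouse oral squamous carcinoma lines MOC1, MOC1E1 (written MOC1esc1 in the culture notes) and MOC22, all labelled C57BL/6J. The study asked how checkpoint antibodies change CD8 T cells in these tumours. Each single-cell library came from tumours of mice injected intraperitoneally with isotype control, antiPD1 or antiCTLA4 antibody on days 3, 6 and 9 after inoculation, and MOC22 had isotype and antiPD1 libraries only. The bulk libraries, 3 a group, came from MOC1 and MOC1E1 tumours of untreated mice and from the same 2 lines in culture, also labelled as untreated. The column names of the culture values carry the word plusifng, which is at odds with that label, and it was not resolved whether these cultures had received interferon gamma. The labels do not say whether libraries of a group came from separate mice or cultures, so p-values measure the spread between these libraries only.

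Glycolysis splits glucose into pyruvate in the cytosol. Cells short of oxygen reduce the pyruvate to lactate and export it. Low oxygen stabilises the HIF transcription factors, which switch on glucose carriers, most glycolytic enzymes and genes for adaptation such as Vegfa and Car9. Activated T cells and neutrophils also run glycolysis when oxygen is present.

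The 36 genes fall into 6 roles. The transporters are Slc2a1 and Slc2a3 (glucose uptake) and Slc16a1 and Slc16a3 (monocarboxylate carriers, the latter a lactate exporter). Upper glycolysis holds the hexokinases Hk1 and Hk2, the isomerase Gpi1, the phosphofructokinases Pfkl, Pfkp and Pfkm, the aldolases Aldoa and Aldoc, and Tpi1. Lower glycolysis holds Gapdh, Pgk1, Pgam1, the enolases Eno1, Eno2 and Eno3, and Pkm, and Ldha and Ldhb encode the lactate dehydrogenase subunits. The flux regulators are the pyruvate dehydrogenase kinases Pdk1 and Pdk3 and the bifunctional enzymes Pfkfb3 and Pfkfb4. The hypoxia genes are Bnip3 (mitophagy), Egln3 (a HIF prolyl hydroxylase), Hilpda (lipid droplets), Ndufa4l2 (a mitochondrial protein), Vegfa (the angiogenic growth factor), Car9 (a carbonic anhydrase at the cell surface), Adm (adrenomedullin), the collagen prolyl hydroxylase subunits P4ha1 and P4ha2, and Mif (a cytokine).

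HIF factors bind a short core that reads ACGTG or GCGTG. As examples, 4 promoters of genes named in the results below are shown, which are not all those with the largest changes. Each window is the 250 bases before a RefSeq gene start on GRCm38.p6, written 5′ to 3′ along the gene, with matches of either core on either strand in capitals (on the reverse strand they read CACGT or CACGC, and neighbouring matches can overlap). Bnip3 (chr7:138909507-138909756, minus strand) had 5 matches, the nearest 35 bases before the start. Hilpda (chr6:29272376-29272625, plus strand, the second of its windows) had 3, Car9 (chr4:43506776-43507025, plus strand) had 1, and Tpi1 (chr6:124814159-124814408, minus strand) had 0.
Bnip3: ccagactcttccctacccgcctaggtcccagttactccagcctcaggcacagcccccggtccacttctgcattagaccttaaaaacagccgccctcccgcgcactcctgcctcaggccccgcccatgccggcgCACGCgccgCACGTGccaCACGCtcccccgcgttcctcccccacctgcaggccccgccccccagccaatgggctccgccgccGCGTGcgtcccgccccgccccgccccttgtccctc
Hilpda: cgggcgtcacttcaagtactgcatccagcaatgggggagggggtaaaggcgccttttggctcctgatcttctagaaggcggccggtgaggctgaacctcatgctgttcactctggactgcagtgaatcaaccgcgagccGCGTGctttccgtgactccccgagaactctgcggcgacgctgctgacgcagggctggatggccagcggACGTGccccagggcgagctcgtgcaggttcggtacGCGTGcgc
Car9: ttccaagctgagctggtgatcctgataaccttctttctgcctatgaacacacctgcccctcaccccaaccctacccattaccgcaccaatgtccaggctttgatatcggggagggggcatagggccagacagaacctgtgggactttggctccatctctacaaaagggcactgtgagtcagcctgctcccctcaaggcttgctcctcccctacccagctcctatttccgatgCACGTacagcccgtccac
Tpi1: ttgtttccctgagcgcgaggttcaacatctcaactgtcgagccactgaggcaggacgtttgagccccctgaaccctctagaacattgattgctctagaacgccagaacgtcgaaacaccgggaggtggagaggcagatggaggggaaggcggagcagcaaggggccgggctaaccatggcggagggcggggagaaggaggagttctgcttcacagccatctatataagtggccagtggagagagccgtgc
A core match stood in at least 1 window of 30 of the 34 members with a window, and in 41.5% of all 27025 genes with one. Counted by window, 38 of 49 member windows and 38.6% of all 32851 windows held a match. A match describes letters in a window and is neither a binding site nor a cause.

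Bulk expression is in TPM, a share of each library's transcripts scaled for transcript length. Each single-cell library held 2755 to 4917 cells after filtering, with a median of 4078 to 5884 UMIs (unique molecules counted) per cell. Any 2 libraries shared at most 35 cell barcodes. The MOC1 single-cell tables list 31017 genes and cells of any mitochondrial share, whereas those of MOC1E1 and MOC22 list 15411 and 14636 genes and stop at 5% mitochondrial UMIs, so levels are not compared between models. Macrophages, neutrophils and NK cells reached 50 cells only in MOC1E1, and Foxp3-positive cells fell below 50 in both antiCTLA4 libraries (44 and 41). Only the MOC1E1 libraries were labelled as immune cells, so the classes found in a model need not reflect what its tumours held. Gapdh, Eno1, Pgam1, Tpi1, Ldha, Aldoa and Mif have near-identical copies or shared symbols in the mouse genome, and the sources used here do not state how such reads were split.

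MOC1E1 tumours held more RNA than MOC1 tumours for 11 of the 34 members tested, with the largest differences at Ndufa4l2 and Car9, and less for 2. The test was limma on log2(TPM + 1), with a call where the Benjamini-Hochberg adjusted p was at most 0.05, and 6.70% of 15125 genes were called higher and 11.9% lower. The median log2 difference was 0.33 over the members and -0.04 over all genes. Slc2a3 and Adm stayed below the filter of 1 TPM in 3 libraries. In bulk tissue a smaller share of one cell type and less RNA per cell cannot be told apart.

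Ndufa4l2 had the largest difference among the members. It measured 58.0, 25.7 and 39.3 TPM in the MOC1 tumours and 129, 114 and 365 TPM in the MOC1E1 tumours, a log2 difference of 2.14 ± 0.46 (SE; limma adjusted p = 0.0177). The lowest MOC1E1 tumour stood above the highest MOC1 tumour. Car9 measured 1.79, 1.05 and 1.23 TPM in MOC1 and 5.79, 4.08 and 28.3 TPM in MOC1E1, a log2 difference of 2.10 ± 0.59 (limma adjusted p = 0.0453). Here too the groups did not overlap, and library 3 of MOC1E1 was far above its 2 partners. Without that library the Car9 difference was 1.33 (limma adjusted p = 0.0101) and that of Ndufa4l2 was 1.62 (0.00937). P4ha1 and Mif rose by 0.67 and 0.65 on the log2 scale (limma adjusted p = 0.0408 and 0.00793).

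The glycolytic enzymes that rose came from several steps. Aldoc, the aldolase typical of brain, measured 14.6, 8.66 and 11.4 TPM in MOC1 and 24.8, 26.5 and 42.0 TPM in MOC1E1 (log2 1.34 ± 0.24, limma adjusted p = 0.00978). Eno1, the widely expressed enolase, measured 895, 843 and 874 TPM against 1416, 1382 and 1839 TPM (log2 0.82 ± 0.11, limma adjusted p = 0.00389). Both genes were higher in each MOC1E1 tumour than in any MOC1 tumour. Pfkl (0.68), Hk1 (0.63) and Pgam1 (0.57) also rose on the log2 scale. Ldhb, whose subunit favours the oxidation of lactate, measured 38.1, 27.2 and 32.0 TPM against 74.2, 67.8 and 47.3 TPM (log2 0.93 ± 0.19, limma adjusted p = 0.0152). The carrier Slc16a1 measured 21.1, 22.8 and 19.8 TPM against 35.7, 38.9 and 31.9 TPM (log2 0.71 ± 0.11, limma adjusted p = 0.00599). For Ldhb and Slc16a1, library 3 was the lowest of the MOC1E1 tumours, unlike for the hypoxia genes.

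Eno3 and Pfkfb4 were the 2 members that fell. Eno3, the enolase of muscle, measured 24.5, 56.5 and 55.3 TPM in MOC1 and 17.2, 19.2 and 12.6 TPM in MOC1E1 (log2 -1.35 ± 0.32, limma adjusted p = 0.0246). Pfkfb4 measured 8.86, 11.9 and 8.31 TPM against 5.41, 4.25 and 3.49 TPM (log2 -0.99 ± 0.20, limma adjusted p = 0.0138). Neither gene overlapped between the groups. The 8 skeletal muscle markers summed to 463 to 1667 TPM in the MOC1 tumours and 4.11 to 80.6 TPM in the MOC1E1 tumours, and all 8 were called lower. Neutrophil markers summed to 168 to 221 TPM against 11.4 to 31.4 TPM, and pan-leukocyte markers to 354 to 402 TPM against 219 to 262 TPM. Their part in these results was not tested.

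**Figure D1:**
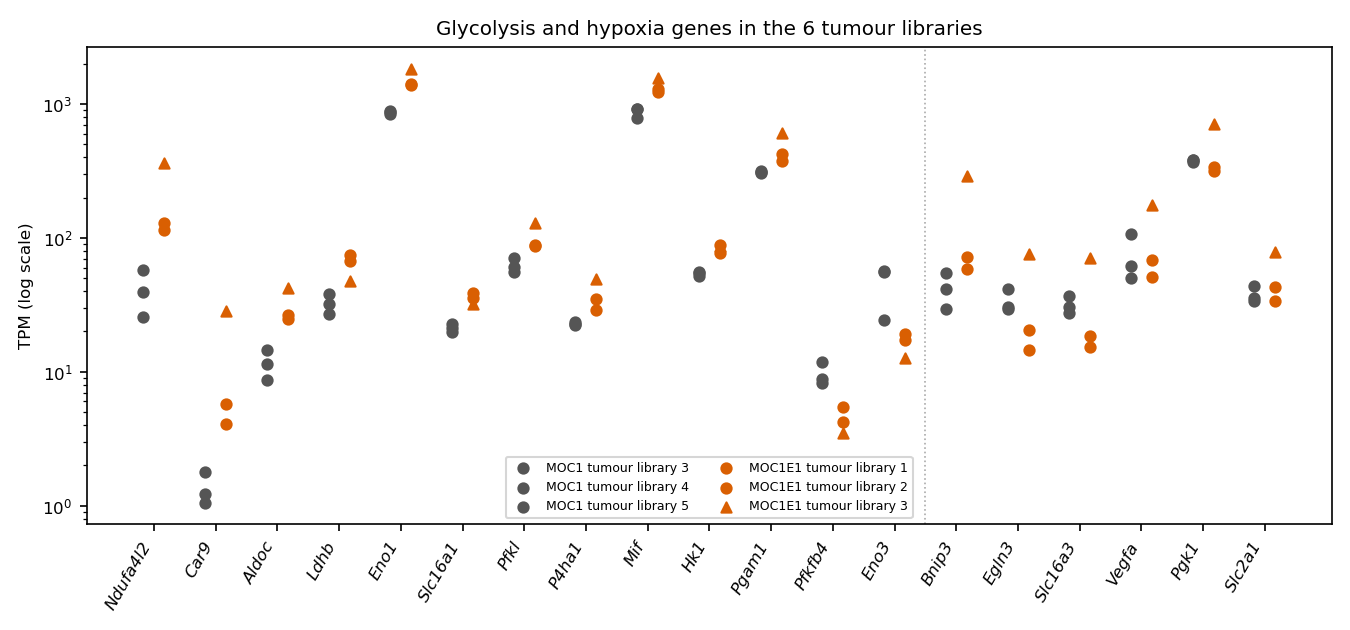
TPM (log scale) of the 13 members called between the lines, and of 6 further members right of the dotted line, in each of the 3 MOC1 (grey) and 3 MOC1E1 (orange) tumour libraries. The triangle is MOC1E1 library 3, which is the highest of the 6 tumours for Ndufa4l2 (365 TPM), Car9 (28.3 TPM) and Bnip3 (289 TPM), while the other 2 MOC1E1 tumours lie below MOC1 for Egln3 and Slc16a3.

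One MOC1E1 tumour stood apart from its partners. Of 33 members measured, 19 were at least 1.5-fold higher in library 3 than in the mean of libraries 1 and 2, and 0 were 1.5-fold lower, where 5.78% of 13605 genes were higher and 6.56% lower. Bnip3 measured 58.5 and 72.0 TPM in libraries 1 and 2 and 289 TPM in library 3. Egln3 measured 14.6 and 20.4 TPM there and 76.5 TPM in library 3, and Slc16a3 measured 18.4 and 15.4 TPM and then 70.9 TPM. These 3 genes were chosen after their values were seen, and library 3 lay above all MOC1 tumours for each. Fibroblast markers in library 3 summed to 509 TPM, the lowest of the 6 tumours. Macrophage (503 TPM), neutrophil (11.4 TPM) and skeletal muscle markers (4.11 TPM) were also lowest there, whereas T cell markers (52.4 TPM, against 14.2 to 40.1 TPM in the others) and adipocyte markers (10.8 TPM) were highest. Their part in the result was not tested.

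Without library 3, 11 members still rose and 7 fell, where 891 and 1754 of 14855 genes did. The median log2 difference was then 0.03 over the members and -0.03 over all genes. Among those that then fell were Hk2 (-1.004), Egln3 (-0.91), Slc16a3 (-0.87), Gpi1 (-0.53) and Ldha (-0.23). Leaving out MOC1 library 4, MOC1 library 5 or MOC1E1 library 2 left 5, 6 and 8 members called. In those fits 1273, 1520 and 1639 genes were called, against 2820 with all libraries. Under quantile normalization 54.3% of all called genes were higher in MOC1E1, against 36.0% with TPM as deposited, while 11 members rose and 2 fell under both.

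In the tumours, of 21 other HIF target genes, 5 rose and 1 fell, among them Gbe1 (log2 0.78) and Ddit4 (0.69) upward and Bhlhe40 (-0.95) downward. Of 18 other glycolysis genes, 0 rose and 5 fell, and the fall was large for Pgam2 (-3.41), the muscle phosphoglycerate mutase. In the pentose phosphate pathway 3 of 7 genes fell, G6pdx by 0.78 on the log2 scale, and 6 of 24 genes of pyruvate entry and the citrate cycle fell. Of 9 regulators of the HIF pathway, 2 fell, Epas1 (-0.73) and Egln2 (-0.54).

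In cultured cells more members were lower in MOC1E1 than higher, the reverse of the tumours. Of 32 members tested, 16 were lower and 7 higher in MOC1E1 cells, where 33.2% of 13975 genes were called lower and 20.2% higher by limma. The median log2 difference was -0.26 over the members and -0.06 over all genes. Slc2a3, Eno2, Car9 and Adm stayed below the filter.

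The lactate exporter Slc16a3 fell most among the members. It measured 17.6, 13.4 and 11.3 TPM in MOC1 cultures and 3.20, 1.86 and 2.40 TPM in MOC1E1 cultures (log2 -2.11 ± 0.19, limma adjusted p = 9.6e-05). P4ha2 measured 36.0, 33.2 and 33.5 TPM against 13.8, 10.2 and 13.5 TPM (log2 -1.40 ± 0.11, limma adjusted p = 5.9e-05). Vegfa measured 83.4, 79.3 and 64.5 TPM against 34.9, 25.0 and 34.4 TPM (log2 -1.25 ± 0.15, limma adjusted p = 0.000336). All 3 genes were lower in every MOC1E1 culture than in any MOC1 culture. Egln3 measured 27.6, 23.2 and 16.8 TPM against 15.6, 8.59 and 12.4 TPM (log2 -0.85 ± 0.23, limma adjusted p = 0.0177), with the groups close to each other.

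Among the enzymes and glucose carriers, Hk2, the inducible hexokinase, measured 91.6, 92.7 and 86.0 TPM against 49.8, 40.2 and 51.1 TPM (log2 -0.93 ± 0.09, limma adjusted p = 0.000152). Hk1, the constitutive hexokinase, went the other way, from 34.0, 37.2 and 31.2 TPM to 101, 89.6 and 106 TPM (log2 1.51 ± 0.09, limma adjusted p = 9.47e-06). The 2 hexokinases thus changed places as the more abundant form between the lines. Slc2a1 measured 86.4, 73.8 and 70.7 TPM against 47.8, 40.1 and 45.9 TPM (log2 -0.77 ± 0.09, limma adjusted p = 0.000418). Pgk1, which makes the first ATP of glycolysis, measured 834, 769 and 765 TPM against 486, 462 and 450 TPM (log2 -0.76 ± 0.05, limma adjusted p = 2.5e-05). Neither gene overlapped between the lines. The other increases were between 0.15 and 0.46 on the log2 scale (Eno1, Mif, Slc16a1, Pfkl, Pkm and Gapdh), and that of Gapdh changed sign under quantile normalization. That normalization gave 54.7% of all called genes as higher, against 37.8%.

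Of 22 other HIF target genes in culture, 4 rose and 9 fell, among them Angptl4 (log2 -1.93), Stc2 (-1.83) and Bhlhe40 (-1.60). Cell cycle markers rose for 8 of 12 and fell for 2, summing to 3027 to 3052 TPM in MOC1E1 against 2654 to 2754 TPM in MOC1, and their part in the results was not tested.

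The difference between the lines itself differed between tumour and culture for 10 members of 35, by limma over all 12 libraries. It was more positive in tumours for 9 and less positive for 1, where 10.2% and 6.61% of 16813 genes were called in those directions. The median of this difference of differences was 0.51 over the members and 0.04 over all genes. Among the 10 called it was largest for Ndufa4l2 (2.28 ± 0.64, limma adjusted p = 0.0313), followed by P4ha2 (1.59 ± 0.28, 0.00255) and Aldoc (1.48 ± 0.33, 0.0105). Bnip3 (2.01), Slc16a3 (1.92), Vegfa (1.55) and Car9 (1.49) had values of this size and missed the threshold (limma adjusted p = 0.0666, 0.0534, 0.0783 and 0.181). In culture Ndufa4l2 lay near the filter of 1 TPM, so its value rests almost wholly on the tumours. It measured 1.42, 1.29 and 0.19 TPM in MOC1 cultures and 1.29, 0.21 and 0.79 TPM in MOC1E1 cultures. Ldhb changed direction: it rose by 0.93 in tumours and fell by 0.51 in culture, from 27.1, 28.7 and 32.7 TPM to 21.3, 18.5 and 21.2 TPM (difference 1.44 ± 0.23, limma adjusted p = 0.00145). Slc2a1 (1.14), P4ha1 (0.84), Pgam1 (0.61), Pdk3 (0.50) and Slc16a1 (0.39) complete the 9. Hk1 was the member that went the other way, at -0.88 ± 0.12 (limma adjusted p = 0.000593), since its rise was smaller in tumours. Tumours and cultures stand in tables processed separately, so their levels were not compared. Leaving out MOC1 tumour library 5, or any of MOC1E1 cultures 11 and 12 and MOC1 cultures 4 and 5, left 4 to 6 members called. In those fits 2047 to 2368 genes were called, against 2828 with all libraries.

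**Figure D2:**
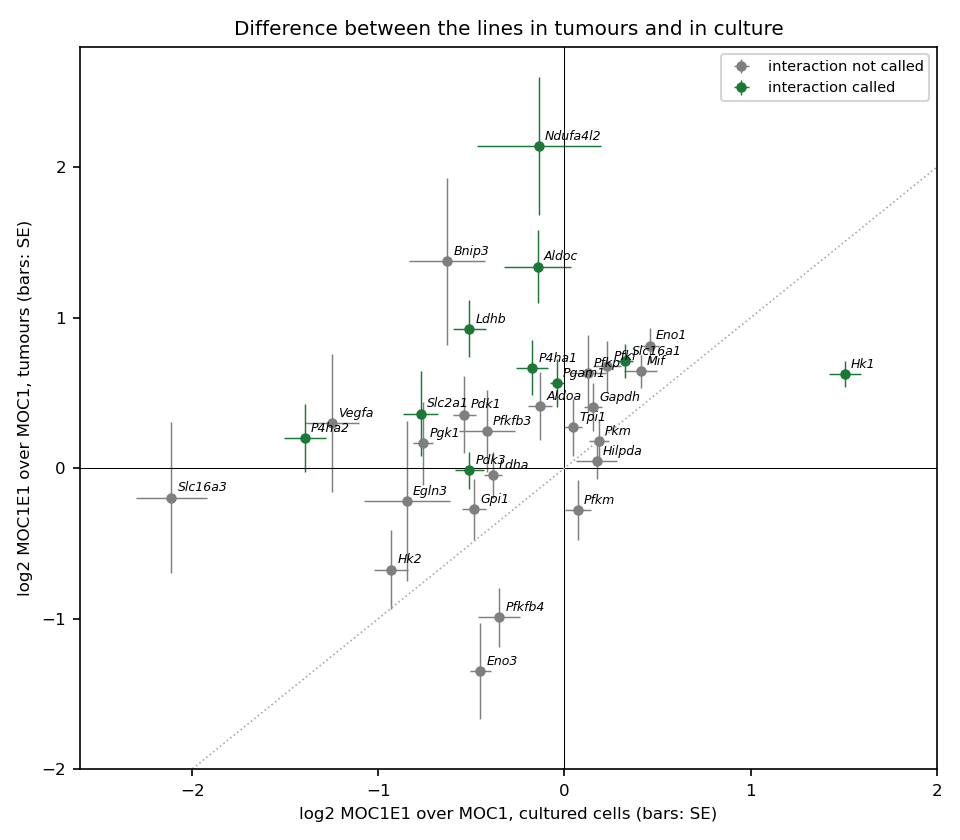
Log2 difference of MOC1E1 over MOC1 (bars, SE, 3 libraries a group) in cultured cells (x axis) and in tumours (y axis) for the members tested in both. Green points are members whose line difference itself differed between the settings, and all of these but Hk1 lie above the dotted line of equal difference.

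Among immune cells, levels are in CPM, a gene's UMIs relative to all UMIs of a class in a library, and are not scaled for gene length. The 36 genes summed to 8264 CPM in CD8 cells, 11570 CPM in CD4 cells and 15180 CPM in Foxp3-positive cells of the MOC1 isotype library. In the MOC1E1 isotype library they summed to 5386 CPM in CD8 cells, 5685 CPM in CD4 cells, 8381 CPM in Foxp3-positive cells, 3532 CPM in NK cells, 8219 CPM in macrophages and 14850 CPM in neutrophils. Foxp3-positive cells were above CD8 and CD4 cells in 5 of the 6 libraries where all were measured. The exception was MOC22 antiPD1, with 8207 CPM in 75 Foxp3-positive cells and 9380 CPM in CD8 cells. Ndufa4l2, Adm, P4ha2, Car9 and Eno2 were at or near 0 in every T cell class, at no more than 2.64 CPM.

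**Figure D3:**
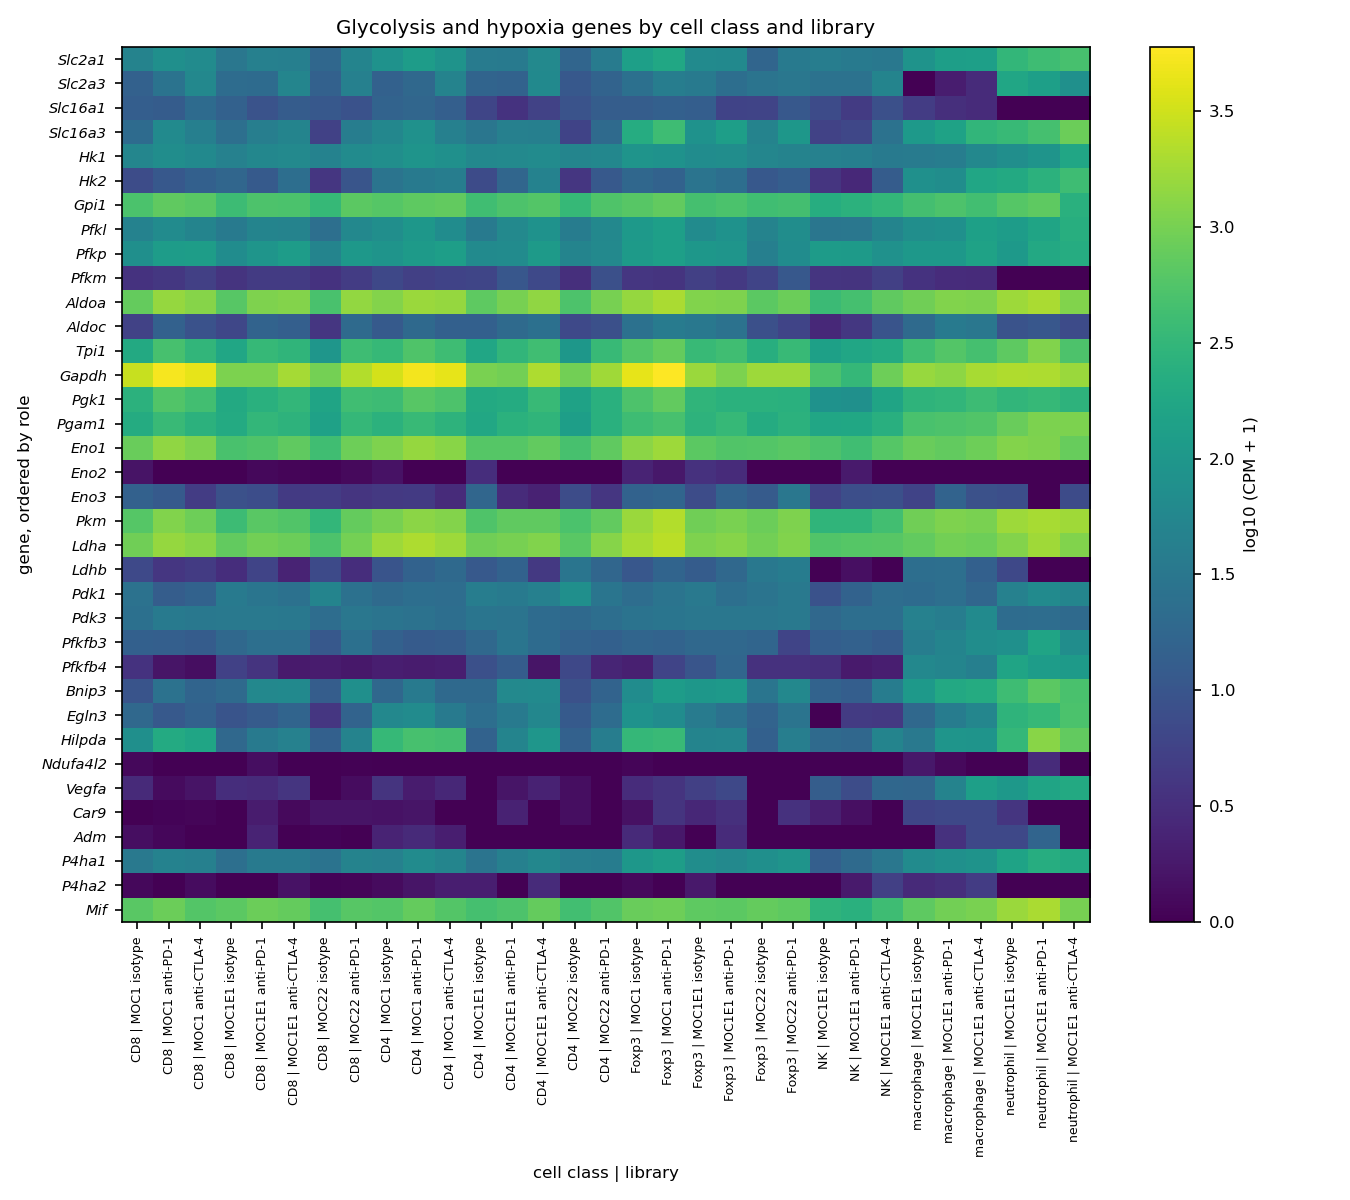
Level of each of the 36 genes, as log10 (CPM + 1), in each cell class of each library with at least 50 cells. The highest value of Slc2a1 (480 CPM), Slc16a3 (845 CPM), Egln3 (506 CPM) and Hilpda (1273 CPM) stands in a neutrophil column, and in CD8 cells Bnip3, Slc16a3 and Hilpda are darker in the isotype library than in the treated libraries of the same model.

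In CD8 T cells, 7 of 31 members tested rose with antiPD1 over the 3 models, and 0 fell. Counts were summed per library and tested with edgeR with the model as a block, and 1.29% of 10272 genes were called higher and 0.604% lower. The median log2 change was 0.59 over the members and -0.02 over all genes. All 7 were higher in antiPD1 cells in each of the 3 models.

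Aldoc rose most. It measured 4.64, 5.40 and 3.00 CPM in the isotype libraries of MOC1, MOC1E1 and MOC22, and 14.0, 14.9 and 19.4 CPM in the antiPD1 libraries (log2 1.93, edgeR adjusted p = 0.0295). Bnip3 measured 8.68, 19.4 and 12.2 CPM and then 25.3, 56.6 and 73.9 CPM (log2 1.89, edgeR adjusted p = 0.022). In both genes the 3 treated libraries lay above all 3 isotype libraries. Hilpda measured 74.2, 17.8 and 13.5 CPM and then 205, 34.8 and 48.7 CPM (log2 1.41, edgeR adjusted p = 0.0215). For Hilpda the treated and isotype values overlapped, although each pair rose.

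The other 4 were glycolytic enzymes. Tpi1, triose phosphate isomerase, measured 196, 172 and 94.7 CPM and then 473, 334 and 404 CPM (log2 1.36, edgeR adjusted p = 0.0325). Aldoa measured 754, 636 and 497 CPM and then 1493, 1131 and 1455 CPM (log2 1.04, edgeR adjusted p = 0.0284). In both enzymes all antiPD1 libraries stood above all isotype libraries. Pkm, pyruvate kinase, measured 602, 393 and 317 CPM and then 1141, 650 and 764 CPM (log2 0.89, edgeR adjusted p = 0.0284). Pgam1 measured 210, 205 and 144 CPM and then 366, 312 and 326 CPM (log2 0.78, edgeR adjusted p = 0.0404). In these enzymes too the isotype and antiPD1 libraries did not overlap. Slc16a3 measured 20.2, 22.7 and 4.35 CPM and then 64.3, 40.7 and 38.6 CPM, and missed the threshold (log2 1.84, edgeR adjusted p = 0.0604). Pdk1, the kinase that closes pyruvate off from the citrate cycle, measured 25.2, 34.5 and 49.3 CPM and then 11.96, 28.0 and 24.4 CPM (log2 -0.92, edgeR adjusted p = 0.0608).

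Without the MOC1 pair edgeR called 0 genes and 0 members (1713 genes had an unadjusted p under 0.05), although the sizes were much the same. From the other 2 pairs the log2 change was 2.16 for Aldoc, 2.07 for Bnip3, 1.44 for Tpi1, 1.39 for Hilpda, 1.09 for Aldoa, 0.90 for Pkm and 0.80 for Pgam1, with a median of 0.69 over the members. By contrast, without the MOC1E1 pair edgeR called 10 members higher and 1 lower, among 223 of 10591 genes called. Without the MOC22 pair it called 8 members higher and 0 lower, among 351 of 10041 genes. DESeq2 called 14 members higher and 1 lower on the same sums, among 427 of 10272 genes. Of the other pathway lists, Plod2 (log2 1.56) was the one gene of 20 other HIF targets called, and 0 of 24 citrate cycle genes, 0 of 7 pentose phosphate genes and 0 of 9 HIF regulators were called. Cell cycle markers in CD8 cells summed to 450, 414 and 424 CPM in the isotype libraries and 836, 487 and 470 CPM in the antiPD1 libraries. In CD8 cells without a Mki67 UMI, 6 members were called, among 139 of 9994 genes.

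Within a model each treatment had 1 library, so the contrasts below have no test: a member counts as higher or lower at 1.5-fold or more, over genes with at least 20 UMIs in the pair, and intervals cover counting error only. Genes are named and ranked among those with at least 50 UMIs in the pair. In MOC22 CD8 cells, 21 of 30 members were higher with antiPD1 and 2 lower, where 18.5% and 11.2% of all genes were. The median log2 ratio was 1.18 over the members and 0.15 over all genes, and TMM scaling moved the latter to 0 and left the members' counts at 21 and 2. Slc16a3 was at 4.35 CPM with isotype and 38.6 CPM with antiPD1, a log2 ratio of 3.13 (95% interval 2.71 to 3.62). Aldoc had a ratio of 2.68 (2.16 to 3.28), Bnip3 of 2.60 (2.33 to 2.88), Egln3 of 2.29 (1.76 to 2.90), Tpi1 of 2.09 (1.99 to 2.19) and Hilpda of 1.84 (1.58 to 2.12). The 2 lower members were Ldhb and Pdk1.

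In MOC1 CD8 cells, 16 of 30 members were higher with antiPD1 and 4 lower, beside 9.74% and 11.3% of all genes. Slc16a3 (log2 ratio 1.67), Aldoc (1.56), Bnip3 (1.53), Hilpda (1.46) and Tpi1 (1.27) were higher, and Pdk1 was at -1.08, with 25.2 and 11.96 CPM. With antiCTLA4, 13 of 29 members were higher and 3 lower, beside 11.7% and 13.3% of genes. There the glucose carrier Slc2a3 had the largest ratio, from 13.7 to 57.4 CPM (2.06, interval 1.71 to 2.44). Hilpda (1.17), Slc16a3 (1.05) and Hk2 (1.04) were also higher, while Eno3 (-1.89) and Pdk1 (-0.84) were lower. The antiPD1 and antiCTLA4 contrasts of one model, here and in the classes below, share its isotype library.

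In MOC1E1 CD8 cells, 9 of 30 members were higher with antiPD1 and 3 lower, beside 11.1% and 6.80% of genes. Bnip3 went from 19.4 to 56.6 CPM (1.52, interval 1.04 to 2.08), and Aldoc (1.40), Tpi1 (0.96), Hilpda (0.95), Slc16a3 (0.83) and Aldoa (0.83) were also higher. With antiCTLA4, 12 of 29 were higher and 1 (Eno3) lower, beside 13.6% and 13.0% of genes. Bnip3 (1.64), Hilpda (1.32), Slc2a3 (1.28), Aldoc (1.17), Slc16a3 (1.09) and Aldoa (0.90) had the largest ratios. Slc2a3 was at 20.5 CPM with isotype, 20.3 CPM with antiPD1 and 50.6 CPM with antiCTLA4. Macrophage markers in these CD8 cells summed to 659 CPM (isotype), 1467 CPM (antiPD1) and 127 CPM (antiCTLA4). In CD8 cells without any macrophage or neutrophil marker UMI, an alternative chosen after seeing the data, 8 and 15 members were higher.

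**Figure D4:**
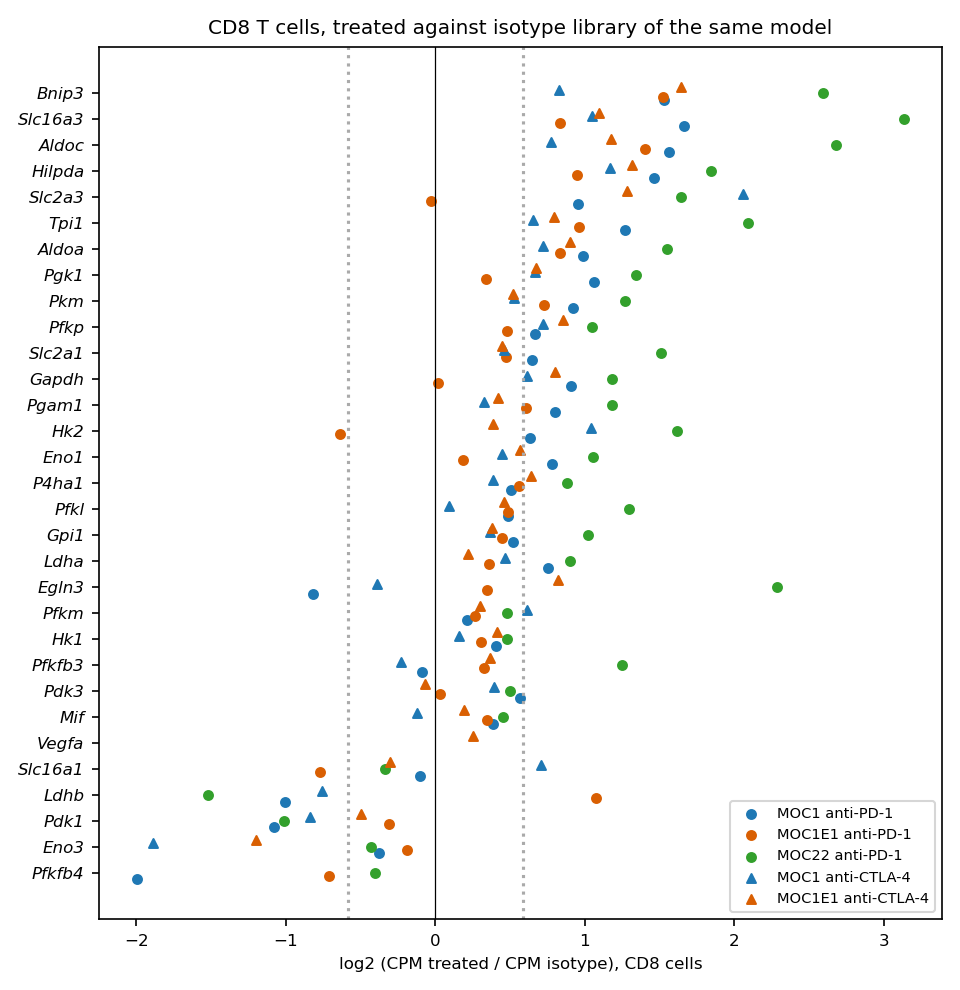
Log2 ratio of treated over isotype CPM in CD8 T cells for each measured member (y axis) in the 3 antiPD1 (circles) and 2 antiCTLA4 (triangles) contrasts, 1 library each, with dotted lines at 1.5-fold. Bnip3, Slc16a3, Aldoc, Hilpda, Tpi1 and Aldoa lie right of the line in all 5, and MOC22 has the largest ratio of the 5 for each of these 6 genes.

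In MOC1, 4 hashtag oligonucleotides split each library, and the labels do not say what they mark. The 36 genes summed over CD8 cells to 7952 to 8577 CPM across the isotype hashtags, 13890 to 15580 CPM across the antiPD1 hashtags and 10810 to 12380 CPM across the antiCTLA4 hashtags. The 3 ranges did not overlap. All hashtags of a treatment are parts of the same library, so they cannot be taken as replicates. Their separation therefore cannot tell an effect of treatment from a difference between libraries. Hashtag ranges of other genes are not given here. Members were also higher in CD8 cells with a Havcr2 UMI (the gene of the checkpoint receptor TIM-3) than in those without, in every library. In MOC22 the sums were 7544 and 3566 CPM with isotype and 11070 and 7110 CPM with antiPD1, so the treated library was higher in both. Cells with a Havcr2 UMI were also deeper, with a median of 7248 against 6224 UMIs in the isotype library.

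**Figure D5:**
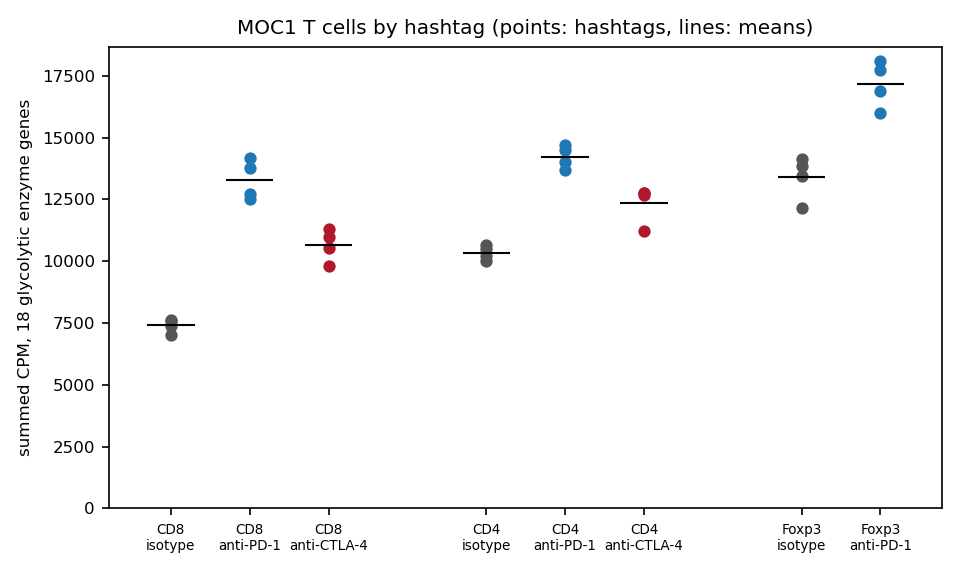
Summed CPM of the 18 glycolytic enzyme genes (upper and lower glycolysis with the lactate dehydrogenases) in MOC1 T cells, one point per hashtag and a line at the mean. In CD8 cells the isotype, antiCTLA4 and antiPD1 hashtags form 3 separate groups in rising order. In CD4 and Foxp3-positive cells the antiPD1 points lie above the isotype points. Points of a treatment come from the same library and cannot be taken as replicates.

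CD4 cells without Foxp3 showed fewer members past 1.5-fold in MOC1. There 5 of 29 were higher with antiPD1 and 0 lower (4.48% and 8.31% of genes), led by Bnip3 at 17.0 and 35.5 CPM (log2 ratio 1.05). With antiCTLA4 2 of 28 were higher and 1 lower (5.43% and 17.0% of genes): Slc2a3 from 14.1 to 47.2 CPM (1.74), Ldhb (1.07) and Egln3 (-0.73). In MOC1E1 CD4 cells 10 of 28 were higher with antiPD1 and 0 lower (9.99% and 7.26% of genes), with Hilpda at 1.70 and Bnip3 at 1.64. Macrophage markers there summed to 1040 CPM with isotype and 2597 CPM with antiPD1, and 5 members were higher among cells without myeloid marker UMIs. With antiCTLA4 16 of 25 were higher and 0 lower (11.2% and 16.7% of genes), led by Hk2 from 6.26 to 45.7 CPM (2.76, interval 1.67 to 4.36) and Hilpda from 14.6 to 97.2 CPM (2.69). That count was 16 without myeloid marker UMIs too. In MOC22 CD4 cells 15 of 27 were higher and 3 lower (24.9% and 10.0% of genes), among them Tpi1 from 97.5 to 347 CPM (1.83) and, on 26 UMIs, Slc16a3 (2.01), and TMM scaling, which moved the median of all genes from 0.22 to -0.04, left 10 higher.

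Foxp3-positive cells had high levels under isotype. In each model a smaller share of their members than of CD8 members was 1.5-fold higher with antiPD1. Over all genes this share was also smaller than in CD8 cells in MOC1 (4.29% against 9.74%) and MOC1E1 (7.41% against 11.1%). In MOC22 it was 19.5% against 18.5%. In MOC1, 5 of 31 were higher and 0 lower (4.29% and 8.91% of genes), with Slc16a3 from 219 to 405 CPM (log2 ratio 0.89) and Bnip3 from 67.0 to 124 CPM (0.88). Of these 31, 26 had a log2 ratio above 0, and the median was 0.33 over the members and -0.05 over all genes. In MOC1E1 the 2 medians were -0.033 and -0.045. In MOC1E1, 4 of 29 were higher and 3 lower (7.41% and 8.52% of genes), with Slc16a3 at 0.65 and Gapdh at -0.59. Without cells holding a myeloid marker UMI, 2 were higher and 2 lower of 28 in MOC1E1. In MOC22, 8 of 24 were higher and 0 lower (19.5% and 11.1% of genes), with Slc16a3 at 1.06 (interval 0.39 to 1.74) from 39 and 40 UMIs, and with larger ratios on 21 to 27 UMIs for Hilpda (1.55), Eno3 (1.42) and Slc2a1 (1.13). Slc16a3 was thus higher in the antiPD1 library in each model.

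Compared within libraries, CD8 cells held less RNA than Foxp3-positive cells for 12 of 29 members and more for 0. The edgeR test took 6 libraries as blocks, and 14.3% of 9529 genes were lower in CD8 cells and 12.8% higher. The median log2 difference was -0.27 over the members and 0.02 over all genes. Slc16a3 measured 20.2, 64.3, 22.7, 40.7, 4.35 and 38.6 CPM in CD8 cells (MOC1, MOC1E1 and MOC22, each as isotype then antiPD1) and 219, 405, 82.3, 130, 48.1 and 100 CPM in Foxp3-positive cells (log2 2.20 higher in Foxp3-positive cells, edgeR adjusted p = 0.000115). Its lowest Foxp3-positive value lay below the highest CD8 value, but each library had more in Foxp3-positive cells. The same was true in 6 of 6 libraries for Ldhb (1.98, edgeR adjusted p = 0.00204), Egln3 (1.77, 0.000209), P4ha1 (1.11, 6.8e-05) and Pkm (0.82, 0.000387), all as log2 higher in Foxp3-positive cells.

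Bnip3 (log2 1.41), Aldoc (1.12) and Hilpda (0.77) were higher in Foxp3-positive cells in 5 of 6 libraries, the MOC22 antiPD1 library being the exception. For Hilpda the MOC22 isotype library was near equal, at 13.57 CPM in Foxp3-positive cells (11 UMIs) and 13.54 CPM in CD8 cells. DESeq2 did not call Hilpda (DESeq2 adjusted p = 0.0656). Bnip3 measured 67.0, 124, 99.6, 106, 28.4 and 57.7 CPM in Foxp3-positive cells and 8.68, 25.3, 19.4, 56.6, 12.2 and 73.9 CPM in CD8 cells (edgeR adjusted p = 0.00955). The values of the 2 classes overlapped across libraries. Hk2 (0.75), Pfkl (0.72), Tpi1 (0.58) and Ldha (0.42) complete the 12. Hif1a, the oxygen-sensitive HIF subunit, was itself higher in Foxp3-positive cells by log2 1.54 (edgeR adjusted p = 2.7e-06), one of 5 of 10 HIF pathway regulators. Of 17 other HIF targets 7 were higher in Foxp3-positive cells and 1 in CD8 cells. Cell cycle markers were higher in Foxp3-positive cells for 5 of 12 and in CD8 cells for 0, and their part in these results was not tested. Macrophage markers summed to 3236 and 3677 CPM in the Foxp3-positive cells of MOC1E1, against 659 and 1467 CPM in its CD8 cells and 16640 to 22360 CPM in macrophages, and to 22.2 and 78.1 CPM in the Foxp3-positive cells of MOC1. Without cells holding a myeloid marker UMI, 12 members were still called. Leaving out the MOC1 isotype pair left 8, with 1807 of 8981 genes called, against 2579 of 9529 with all pairs.

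Neutrophils exceeded macrophages for 20 of 27 members in MOC1E1 tumours and were below them for 2. The edgeR test paired the 2 classes within 3 libraries, and 27.7% of 6131 genes were higher in neutrophils and 27.5% lower. The median log2 difference was 0.97 over the members and -0.03 over all genes, which DESeq2 size factors moved to -0.12 with the same 20 and 2 members called. Neutrophils had a median of 1030 to 1430 UMIs per cell and macrophages 4428 to 6762.

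Slc2a3, the high-affinity glucose carrier, measured 171, 137 and 76.8 CPM in neutrophils (isotype, antiPD1, antiCTLA4) and 0, 0.990 and 1.88 CPM in macrophages (edgeR adjusted p = 1.1e-08). It was close to absent from macrophages, so its fitted fold depends on the prior count and is not given. Egln3 measured 287, 336 and 506 CPM against 17.9, 37.9 and 52.7 CPM (log2 3.54, edgeR adjusted p = 4.1e-08). Hilpda measured 323, 1273 and 742 CPM against 32.4, 92.3 and 90.3 CPM (log2 3.49, edgeR adjusted p = 8.4e-08). The classes stood far apart for all 3 genes in every library. Slc2a1 (log2 1.86), Vegfa (1.78), Bnip3 (1.74), Slc16a3 (1.66) and Hk2 (1.59) were likewise higher in neutrophils in 3 of 3 libraries.

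Of the members tested, Aldoc (log2 -1.56) and Pdk3 (-1.08) were called lower in neutrophils. Aldoc was at 8.36, 9.65 and 6.4 CPM against 19.4, 34.9 and 30.1 CPM (edgeR adjusted p = 0.00465). Other members were too low to be tested. Among these Ldhb measured 5.57, 0 and 0 CPM in neutrophils and 22.4, 23.0 and 13.2 CPM in macrophages. Slc16a1, Pfkm and P4ha2 were at 0 CPM in neutrophils and at most 3.76 CPM in macrophages. Untested Adm was higher in neutrophils in 2 of 3 libraries. Pgk1 (0.02), Gpi1 (0.16), Gapdh (0.37), Eno1 (0.41) and Pfkp (0.56) did not pass the test. Of 14 other HIF target genes 11 were higher and 0 lower in neutrophils, led by Pnrc1 (2.93), Kdm3a (2.42) and Ero1l (2.34). Of 22 genes of pyruvate entry and the citrate cycle 14 were lower and 0 higher, among them Mdh1 (-1.78) and Idh3a (-2.41).

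With treatment, macrophages were higher for 7 of 29 members with antiPD1 and lower for 0 (4.83% and 6.81% of genes), and for 11 and 1 of 27 with antiCTLA4 (13.4% and 16.4% of genes). Vegfa stood at 16.4 CPM with isotype, 48.0 CPM with antiPD1 and 134 CPM with antiCTLA4, log2 ratios of 1.54 and 3.02 (intervals 1.07 to 2.06 and 2.46 to 3.60). Hilpda stood at 32.4, 92.3 and 90.3 CPM and Egln3 at 17.9, 37.9 and 52.7 CPM. Both treated libraries were above isotype for all 3 genes, and the antiCTLA4 values rest on 110 macrophages.

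In neutrophils 6 of 26 members were higher with antiPD1 and 0 lower (7.53% and 19.9% of genes), and 9 were higher and 3 lower of 25 with antiCTLA4 (14.7% and 41.9% of genes). The median of all genes was -0.18 and -0.40 there, and TMM scaling left 11 and 12 members higher. Hilpda had log2 ratios of 1.98 (1.76 to 2.20) with antiPD1 and 1.20 (0.87 to 1.53) with antiCTLA4. With antiCTLA4 Slc16a3 (1.27) and Hk1 (1.27) were higher and Gpi1 (-1.27) and Slc2a3 (-1.10) lower, the last from 123 and 12 UMIs. In NK cells 2 members of 24 were higher and 2 lower with antiPD1 (4.36% and 6.59% of genes), with Gapdh at 503 and 323 CPM (-0.64). With antiCTLA4 10 of 23 were higher and 0 lower (11.2% and 13.0% of genes), among them Hilpda (1.35), Bnip3 (1.34) and P4ha1 (1.20). Each of these 3 ratios rests on 51 to 80 UMIs, and those of Slc16a3 (2.45) and Pdk1 (1.42) on 32 and 34 UMIs.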

How the data were processed

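Single-cell RNA (10x 5′) and bulk RNA were measured. The deposited single-cell values are UMI counts per gene and cell barcode, filtered by the authors in MOC1E1 and MOC22 but not in MOC1, as the deposited tables show. The deposited bulk values are TPM, made by the authors per library, in separate tables for tumours and cultures. Per the submitters' processing notes, kallisto 0.46.0, Trimmomatic 0.36, Cell Ranger 3.0.2 and DESeq2 were used, in roles that are not stated. Of 30 samples, the T cell receptor and exome libraries were not used here.

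Barcodes were kept where 300 or more genes were detected and mitochondrial UMIs made up no more than 10%, and cells were classed by their own lineage transcripts (for example Cd8a or Cd8b1 with a Cd3 gene, without Cd4 and Foxp3). No doublet caller was run, and T cells with both Cd4 and Cd8a or Cd8b1 UMIs were left out. Bulk values were tested with limma 3.58.1 on log2(TPM + 1) for genes with at least 1 TPM in 3 libraries. The log2 differences on this scale understate the change of low genes. UMI counts summed per library and class were tested with edgeR 4.0.16 (quasi-likelihood, TMM, filterByExpr) with model or library as block. DESeq2 1.42.0 was an alternative (R 4.3.3). Contrasts of 1 library against 1 used a pseudocount of 0.5 UMIs and exact 95% intervals. The tests were also run on simulated data drawn independently per gene, which cannot show how they behave where 1 library shifts many genes together.

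The 36 genes, their lists and the tests were chosen with earlier results of these data known. Named in full are up to 8 called members with the largest change per tested comparison, and up to 6 members with the largest ratio and at least 50 UMIs per single-library contrast. Other pathway lists give up to 3 called genes with the smallest p. Removal of T cells with a macrophage or neutrophil marker UMI was added after seeing the data. The test of CD8 against Foxp3-positive cells was planned on 8 libraries and used 6, since the antiCTLA4 libraries had under 50 Foxp3-positive cells.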

Additional observations from a re-analysis of the deposited data

Results flagged for a closer look

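For 10 members, the difference between MOC1E1 and MOC1 was itself different in tumours and in culture by limma's test of that difference. On the log2 scale, the difference in tumours minus the difference in culture was 2.28 for Ndufa4l2, 1.59 for P4ha2, 1.48 for Aldoc, 1.44 for Ldhb, 1.14 for Slc2a1, 0.84 for P4ha1, 0.61 for Pgam1, 0.50 for Pdk3, 0.39 for Slc16a1 and -0.88 for Hk1. Each rests on 3 libraries a group, and the tumours hold other cells beside the tumour line. Slc2a1 and P4ha2 fell in culture and did not pass the test in tumours, whereas Ndufa4l2 and Aldoc rose in tumours and did not pass it in culture. Ndufa4l2 was close to the filter of 1 TPM in culture, so little signal was there to compare.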

How the results depend on the processing

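For the bulk libraries of the 2 lines, no paired analysis was possible because the columns do not carry the labels' replicate numbers, and the numbers in their names coincide once between the tumour groups and never between the culture groups. The single-cell tests above are blocked by model or library, not by replicate number. Leaving out one tumour library at a time gave 1273 to 2645 called genes (2820 with all) and 5 to 18 members (13 with all). Without the filter on low TPM 7 members were called there, among 2025 of 27513 genes. The line difference differed between tumours and culture for 4 to 15 members when one library was left out, against 10. In those fits 2011 to 3012 genes were called, against 2828 with all libraries. Quantile normalization turned Gapdh in culture, 0.15 as deposited, to -0.047. For antiPD1 in CD8 cells, 194 genes were called with all pairs, 0 to 351 with one pair left out, 427 by DESeq2, 304 without the filter and 362 without the 5% of cells with the most UMIs. The members called there were 7, against 0 to 11 with one pair left out, 15 by DESeq2 and 13 without the deepest cells. Among single-library CD8 contrasts, lower members in MOC1 with antiPD1 numbered 2 (from 4) without Mki67 UMIs, and higher members with antiCTLA4 numbered 8 (from 13) after thinning to 2000 UMIs. In MOC1E1, lower members numbered 1 (from 3) with antiPD1 when 2 UMIs of a class marker were asked for, and 2 (from 1) with antiCTLA4 without the deepest cells and also without myeloid marker UMIs. The cause of these shifts was not tested. Over single members in tested comparisons, 1903 values kept their side of the threshold, 73 passed it newly and 154 lost it. For 1 value the direction reversed with a call in at least 1 of the settings compared. Changes of sign where neither value was called are counted among the 1903. An example is Vegfa in tumours, at 0.30 and, without MOC1E1 library 3, at -0.22. Thinning left no neutrophil value for antiCTLA4. Contrasts of 1 library against 1 hold counting error only, and low counts limit Foxp3-positive cells in MOC22 and neutrophils with antiCTLA4.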

Other observations

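CD8 cells with a Mki67 UMI, the gene of a proliferation antigen, carried more RNA of the 36 genes than those without in every library. In MOC1 the sums were 12180 and 7594 CPM with isotype, 18510 and 13580 CPM with antiPD1, and 13120 and 11270 CPM with antiCTLA4. In MOC1E1 they were 8882 and 6916 CPM with antiPD1 and 9374 and 7523 CPM with antiCTLA4, and 5858 CPM in the 20 isotype cells with a UMI against 5323 CPM. In MOC22 they were 7343 and 3859 CPM with isotype and 11380 and 8990 CPM with antiPD1. The cells with a UMI were also deeper, with medians of 7646 to 13359 UMIs against 4494 to 6250 UMIs.

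Pck2, the mitochondrial enzyme that makes phosphoenolpyruvate, was lower in MOC1E1 cultures (log2 -1.73, limma adjusted p = 1.2e-05), and its line difference differed from that in tumours (1.96, limma adjusted p = 4.1e-05). It was also higher in Foxp3-positive than in CD8 cells by log2 2.35 (edgeR adjusted p = 2.5e-06).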
